A study of Mus musculus with 2 samples.

Results

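The potassium channel subunit genes of the mouse adrenal gland were the 94 protein-coding genes whose symbol starts with Kcn, of 21901 protein-coding genes found by the same rule and 55536 annotated genes in all. They were chosen by name and transcript type alone, without regard to their level. The RNA came from whole adrenal glands of female B6CASTF1/J mice (an F1 cross carrying C57BL/6J and CAST/EiJ genomes) aged 25 days, and 300 ng of total RNA went into each directional, ribosomal RNA-reduced library with added spike-in RNA. There was 1 group, of 2 libraries called replicate 2 and replicate 1, with no treatment, mutant or second age. The labels conflict on whether the libraries came from separate animals, so the spread between them may be technical.

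A potassium channel lets potassium ions leave or enter the cell down their gradient and so sets the membrane voltage. In the adrenal cortex, background potassium channels keep glomerulosa cells strongly polarised, and depolarisation, whether from their closing under angiotensin II or from raised plasma potassium, opens calcium channels and drives aldosterone synthesis. In the chromaffin cells of the medulla, calcium activated and voltage gated potassium channels shape the action potentials that release catecholamines. K2P subunits (Kcnk) carry a pair of pore loops each and form background channels as dimers. Inward rectifier subunits (Kcnj) and the voltage gated (Kcna, Kcnb, Kcnc, Kcnd, Kcnh, Kcnq) and calcium or sodium activated ones (Kcnma, Kcnn, Kcnt) carry a single pore loop and form tetramers. Kcnu is counted here with the calcium or sodium activated class by family, and not by what opens it. Silent modifiers (Kcnf, Kcng, Kcns, Kcnv) join the tetramers of Kcnb subunits, and auxiliary members (Kcnab, Kcne, Kcnip, Kcnmb, Kcnrg) form no pore.

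The pore loop holds the selectivity filter, the part that tells potassium from sodium, whose core is a glycine, then a tyrosine or phenylalanine, then a glycine. Its codons were searched in the longest complete coding sequence of each gene, in frame and on the coding strand, as NTNGGNTANGGN or NTNGGNTTNGGN. In these, N is any base, so that the leading NTN is any codon with T in the middle. GGN codes for glycine, TAN for tyrosine or a stop and TTN for phenylalanine or leucine. The letters were narrowed after a looser form had been tried, so the counts that follow are description. Of the 94 members, 75 held at least 1 match, against 5.02% of the 21520 other genes searched. All 17 auxiliary members held none. Every one of the 15 inward rectifier, 30 voltage gated, 8 calcium or sodium activated and 10 silent members held exactly 1. Of the 14 K2P members, 11 held 2 matches, while 0.330% of other genes held 2 or more. Kcnk6 held 1, and Kcnk1 and Kcnk7 held no match to the full form searched. The stretches below are those of the members on which the results turn, each with 15 bases on either side, written 5′ to 3′ from GENCODE M21 transcripts on mm10, with the matched codons in capitals.
Kcnk3, first loop: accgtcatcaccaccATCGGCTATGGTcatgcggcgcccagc
Kcnk3, second loop: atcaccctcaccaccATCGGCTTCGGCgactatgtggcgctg
Kcnk9, first loop: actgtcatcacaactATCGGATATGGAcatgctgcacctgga
Kcnk9, second loop: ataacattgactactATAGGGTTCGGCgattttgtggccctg
Kcnk2, first loop: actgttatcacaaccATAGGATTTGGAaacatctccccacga
Kcnk2, second loop: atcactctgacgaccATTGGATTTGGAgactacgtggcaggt
Kcnma1: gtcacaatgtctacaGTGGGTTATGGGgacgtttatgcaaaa
Kcnj5: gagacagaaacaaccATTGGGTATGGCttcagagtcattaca
Kcnh2: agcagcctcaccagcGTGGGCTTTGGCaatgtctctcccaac

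The matches of Kcnk3 and Kcnk9 lay at the same places in their coding sequences, at bases 280 to 291 and 598 to 609 from the start codon. In each gene the first stretch was split by an intron and the second lay within an exon, at chr5:30622190-30622231 on the plus strand for Kcnk3 and at chr15:72512704-72512745 on the minus strand for Kcnk9. The Kcnma1 stretch was at chr14:23528398-23528439, the Kcnj5 stretch at chr9:32322544-32322585 and the Kcnh2 stretch at chr5:24325540-24325581, all on the minus strand. The coding sequences of Kcnk3 and Kcnk9 were identical at 807 of 1152 aligned bases (70.1%), and those of Kcnk3 and Kcnk2 at 652 of 1035 (63.0%).

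The libraries held 33728646 expected counts in replicate 2 and 19366343 in replicate 1. The share on nuclear protein-coding genes, here and below counted without Lars2, was 66.1% in replicate 2 against 36.3% in replicate 1. TPM (the authors' length-normalised value) is a share of the whole table. Across the 10981 nuclear coding genes averaging 100 counts or more, the median ratio of TPM in replicate 2 to TPM in replicate 1 was 1.71. Levels are therefore given in each library, and the libraries are compared on scaled counts. The markers of the cortex and medulla were present: all 7 zona glomerulosa, 5 zona fasciculata, 5 steroidogenic and 7 chromaffin markers reached 1 TPM in both libraries. The libraries stood apart in liver markers, whose summed TPM was 3.67 in replicate 2 and 174 in replicate 1. Kidney tubule (0 of 4) and lymphocyte markers (0 of 3) did not reach 1 TPM in both.

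Most potassium channel genes were low in the gland, and one was among its most abundant messages. In replicate 2, 31 of the 94 members reached 1 TPM (55.9% of all protein-coding genes did), and in replicate 1, 17 did (52.3% of all). The 17 reached it in replicate 2 as well and made up 18.1% of the members, whereas 51.8% of all protein-coding genes reached 1 TPM in both. The median member had 0.315 TPM in replicate 2 and 0.175 TPM in replicate 1, against 2.15 and 1.29 TPM for the median protein-coding gene. All 94 together took 76358 counts of replicate 2 and 21977 of replicate 1. On TPM rescaled over nuclear coding genes, they made up 0.197% and 0.179% of the coding message. Only 4 members, Kcnk3, Kcnn2, Kcnma1 and Kcnk9, reached 10 TPM in both libraries.

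**Figure D1:**
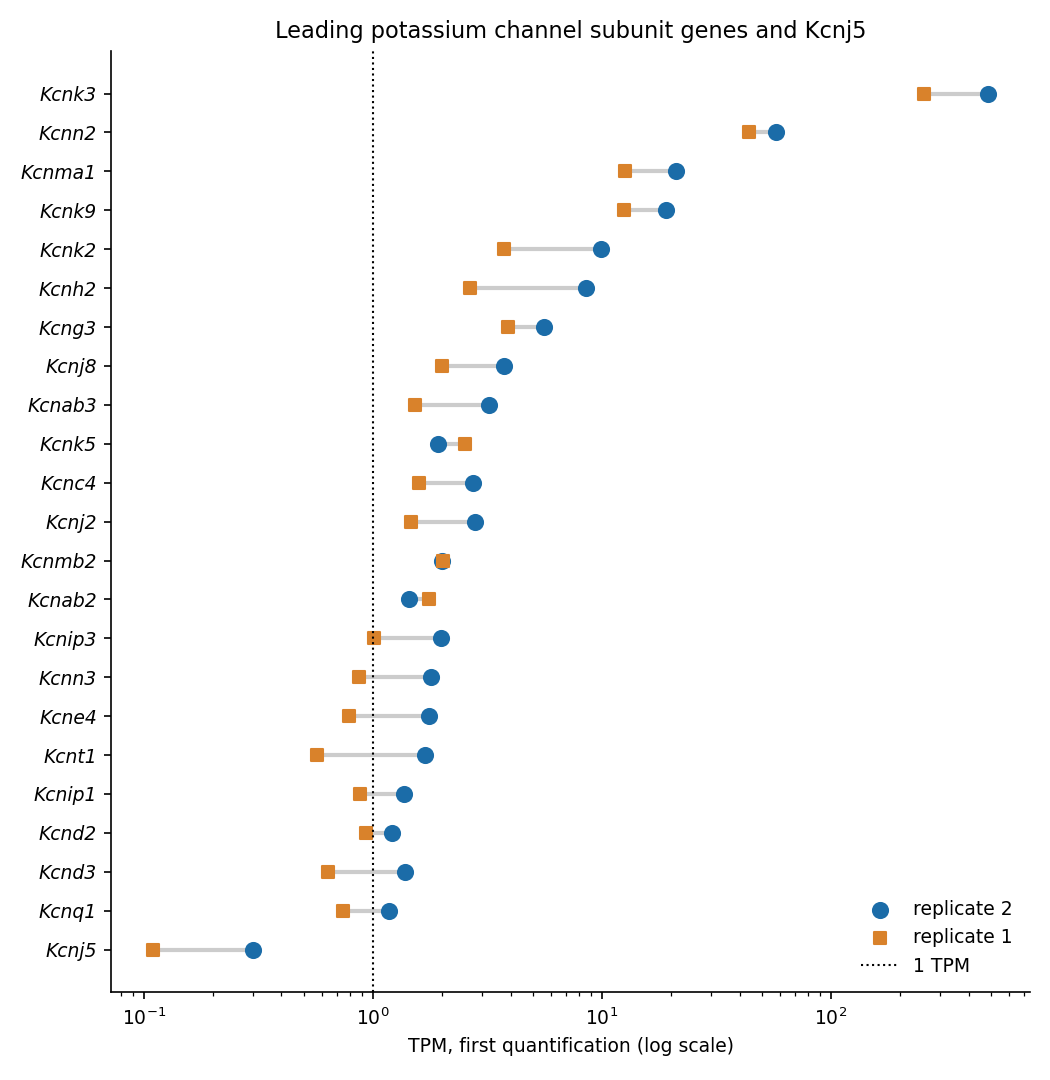
TPM of 23 members, Kcnj5 and 22 of those with the highest means, in replicate 2 (circles) and replicate 1 (squares), on a log axis, with 1 TPM dotted. Kcnk3 stands apart, at 486 TPM (replicate 2) and 256 TPM (replicate 1), and from Kcnn3 downward the members reached 1 TPM in replicate 2 alone, or, for Kcnj5, in neither.

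Another 14 members reached 1 TPM in replicate 2 alone (of all protein-coding genes, 55.9% reached it in replicate 2 and 51.8% in both). Among them were Kcnn3, Kcne4, Kcnt1, Kcnip1, Kcnd2, Kcnd3, Kcnq1, Kcnip4, Kcnq3, Kcnn1, Kcng2, Kcna5 and Kcnu1, which had 1.05 to 1.80 TPM there and 0.34 to 0.94 TPM in replicate 1. On the rescaled TPM all 14 were at or above 1 in both libraries, and 10 of the 14 were higher in replicate 2. Rescaling multiplies TPM by 2.96 in replicate 2 and 4.84 in replicate 1, so all 14 had to pass 1. How far their call in replicate 2 alone came from the lower TPM scale of replicate 1 was not tested. No member reached 1 TPM in replicate 1 alone. At the other end, 10 members had 0 counts in both libraries, among 22.2% of all protein-coding genes at 0 in both. This holds for the authors' first quantification, from transcriptome alignments, which is used unless stated. Their second, made straight from the reads, gave 4 of these 10 an estimate above 0, at most 7.79 counts (Kcnh7 in replicate 2). By counting error alone, a count of 0 allows up to 3 counts at these depths. In the first quantification 20 members had at most 3 counts in each library.

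K2P genes held most of the potassium channel message, through Kcnk3. Kcnk3 (TASK-1, an acid-sensitive background channel) had 486 TPM in replicate 2 and 256 TPM in replicate 1, from 54297 and 15003 counts. It ranked 41st of 22014 nuclear coding genes in replicate 2 and 61st in replicate 1. It alone held 71.1 ± 2.63% of the members' summed TPM (SD, n = 2 libraries). Kcnk9 (TASK-3, a close relative, which pairs with it in mixed channels) had 19.1 TPM in replicate 2 and 12.6 TPM in replicate 1. Per length, Kcnk3 exceeded Kcnk9 25.5-fold in replicate 2 and 20.4-fold in replicate 1 (22.9 ± 3.59, SD, n = 2). In counts it exceeded Kcnk9 by less, 7.40-fold and 5.97-fold, since the single Kcnk9 transcript is 12300 bases long and the main Kcnk3 transcript 3811 bases.

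Kcnk2 (TREK-1, opened by stretch and lipids and known in bovine cortisol-secreting cells) had 9.90 TPM in replicate 2 and 3.76 TPM in replicate 1. Kcnk5 (TASK-2, opened by alkaline pH) had 1.93 TPM in replicate 2 and 2.52 TPM in replicate 1. The other 10 K2P genes stayed under 1 TPM in both libraries. Kcnk1 was the highest of them at 0.59 and 0.37 TPM, and Kcnk7, Kcnk15, Kcnk16 and Kcnk18 had 0 counts. K2P genes together made up 77.9% of the members' TPM in replicate 2 and 74.6% in replicate 1. Without Kcnk3 their share was 18.03% in replicate 2 and 17.5% in replicate 1.

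Kcnk3 is also known in mouse brown fat. All 5 fat markers reached 1 TPM in both libraries and summed to 934 TPM in replicate 2 and 754 TPM in replicate 1, with Ucp1, the uncoupling protein of brown fat, at 165 TPM and 185 TPM. The part of fat in the Kcnk3 level was not tested. In bulk tissue, more cells of a type and more RNA per cell cannot be told apart.

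**Figure D2:**
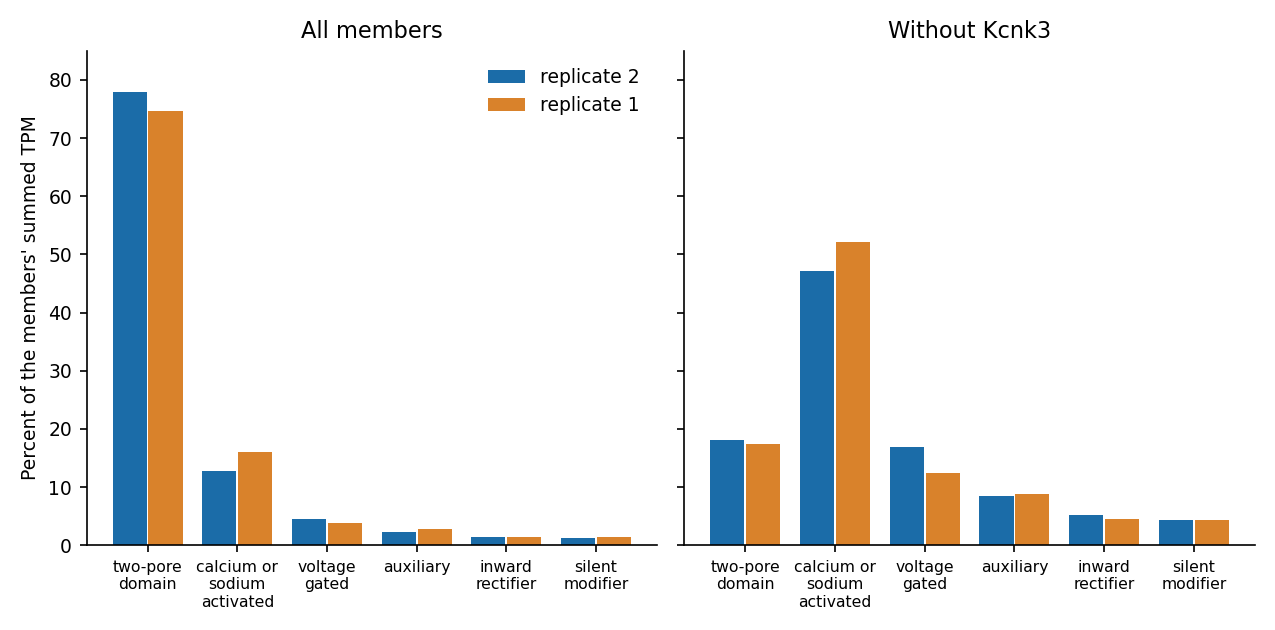
Percent of the members' summed TPM held by each class, for all members (left) and without Kcnk3 (right), with replicate 2 left of replicate 1 in each pair of bars. K2P genes held 77.9% in replicate 2 and 74.6% in replicate 1, and without Kcnk3 the calcium or sodium activated genes held the highest bar, 47.1% and 52.2%.

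The calcium or sodium activated genes came next, with 12.7% of the members' TPM in replicate 2 and 16.03% in replicate 1. Kcnn2 (SK2, a small-conductance channel gated by calmodulin) had 57.6 TPM in replicate 2 and 43.9 TPM in replicate 1, the second level of the family. Kcnma1 (the pore of the large-conductance BK channel, gated by voltage and calcium together) had 21.1 TPM in replicate 2 and 12.6 TPM in replicate 1. Its level lay close to that of Kcnk9: Kcnk9 over Kcnma1 was 0.906 in replicate 2 and 0.997 in replicate 1, so the order of these neighbours was not separated beyond the spread of their levels. Kcnn3 had 1.80 TPM in replicate 2 and 0.87 TPM in replicate 1. Kcnn1 (1.10 and 0.47 TPM), Kcnt1 (1.70 and 0.57 TPM) and Kcnu1 (1.05 and 0.45 TPM) crossed 1 TPM in replicate 2 alone, and Kcnt2 (0.32 and 0.39 TPM) and Kcnn4 (0.07 TPM in each) did so in neither.

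Inward rectifier genes held 1.41% of the members' TPM in replicate 2 and 1.39% in replicate 1. Only Kcnj8 and Kcnj2 of the 15 reached 1 TPM in both libraries. Kcnj8 (the Kir6.1 pore of the vascular ATP-sensitive channel) had 3.73 TPM in replicate 2 and 2.01 TPM in replicate 1. Of the sulfonylurea receptors that complete such channels, Abcc9 had 6.57 TPM in replicate 2 and 4.07 TPM in replicate 1, while Abcc8 had 0.60 and 0.22 TPM. Kcnj2 (Kir2.1, a strong rectifier) had 2.81 TPM in replicate 2 and 1.47 TPM in replicate 1. In the first quantification the other 13 averaged at most 0.590 TPM, that of Kcnj12, and Kcnj1, Kcnj13 and Kcnj16 had 0 counts.

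Kcnj5 (GIRK4, the channel mutated in many human aldosterone-producing adenomas) was near the floor in the first quantification and not in the second. The first, made from transcriptome alignments, gave it 37 counts and 0.30 TPM in replicate 2 and 8 counts and 0.11 TPM in replicate 1. The second, made straight from the reads, gave 172 counts and 3.11 TPM in replicate 2 and 32.0 counts and 0.721 TPM in replicate 1. Its rank among the members by mean TPM was 51 in the first and 20 in the second. Among the 58 members with a mean count of at least 10, the second quantification gave a median of 1.13 times the counts of the first in replicate 2 and 1.16 times in replicate 1. Kcnj5 was the only one of them at 2 times or more in either library, where 1.18% and 1.53% of all such protein-coding genes were.

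In replicate 2, most of the Kcnj5 difference was on 1 of its 3 transcripts. The second quantification put 119 Kcnj5 counts on Kcnj5-203 in replicate 2 and 12.0 in replicate 1, and the first gave that transcript 0 in both. Kcnj5-201 and Kcnj5-202 share a 939-base exon at chr9:32322081-32323019 that holds the filter stretch printed above, and Kcnj5-203 has no exon there. In replicate 2 the counts on the transcripts that hold the stretch were closer: 29.6 (Kcnj5-201) and 23.0 (Kcnj5-202) in the second, beside 24.5 and 12.5 in the first. In replicate 1 Kcnj5-201 was close, with 8.32 counts in the second and 7.54 in the first. Kcnj5-202 was not, with 11.7 in the second and 0.46 in the first. The neighbour of Kcnj5, Kcnj1 (ROMK, the renal potassium channel), lies 28142 bases away on the opposite strand. Kcnj1 had 0 counts in both libraries in the first quantification. The second gave it 2.52 counts in replicate 2 and 0 in replicate 1.

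**Figure D3:**
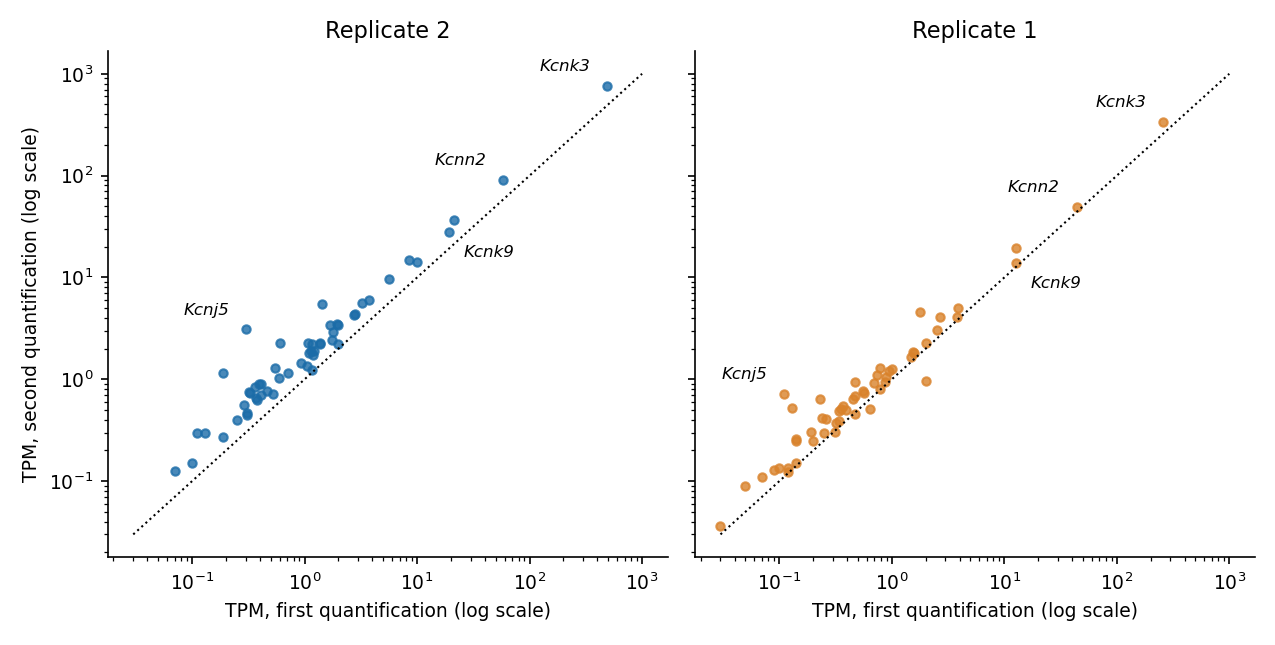
TPM of 54 of the 58 members with a mean count of at least 10 in the second quantification (vertical) against the first (horizontal), both on log axes, for replicate 2 (left) and replicate 1 (right), with equality dotted. Most points lie on or above the line, and Kcnj5 lies far above it at 3.11 against 0.30 TPM in replicate 2 and 0.721 against 0.11 TPM in replicate 1.

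The second quantification put 20 members at 1 TPM in both libraries, 16 of them shared with the first. It added Kcnip1, Kcnd2, Kcnq1 and Kcnq3, at 1.06 to 1.28 TPM in replicate 1, and left out Kcnmb2, at 0.964 TPM there. In replicate 2 it also put 9 members over 1 TPM that the first had below it, among them Kcnj5, Kcnmb4 at 2.28 TPM, Kcns3 at 1.43, Kcnmb3 at 1.29, Kcnk4 at 1.18, Kcnq5 at 1.16, Kcnj12 at 1.15 and Kcnk1 at 1.02 TPM. The 4 highest members were the same in both quantifications, and so were 9 of the highest 10.

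The voltage gated genes, 30 in number, held 4.54% of the members' TPM in replicate 2 and 3.84% in replicate 1, and 4 of them reached 1 TPM in both. Kcnh2 (ERG1, the channel of the delayed cardiac rectifier current) led with 8.55 TPM in replicate 2 and 2.67 TPM in replicate 1. Kcnc4, of the Kv3 channels, which close fast, had 2.73 TPM in replicate 2 and 1.59 TPM in replicate 1. Kcnq3, a subunit of the neuronal M-current channel, had 1.08 TPM in replicate 2 and 0.78 TPM in replicate 1. Kcnd2 had 1.22 TPM in replicate 2 against 0.94 TPM in replicate 1, and Kcnd3 1.38 and 0.64 TPM; both make A-type currents. Kcnq1 had 1.18 TPM in replicate 2 and 0.74 TPM in replicate 1.

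The Shaker-type genes (Kcna) were low, as most members were. The highest, Kcna5, had 1.15 TPM in replicate 2 and 0.35 TPM in replicate 1. In replicate 2 the median of the 8 was 0.315 TPM, and in replicate 1 it was 0.215 TPM. The median of all members was 0.315 and 0.175 TPM. Kcna7, Kcna10 and Kcnh7 had 0 counts in both libraries in the first quantification. Altogether 20 of the 30 stayed under 1 TPM in both, and the highest of those averaged 0.495 TPM.

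Silent modifiers were represented by Kcng3 (Kv6.3), with 5.58 TPM in replicate 2 and 3.89 TPM in replicate 1. Kcng2 had 1.17 TPM in replicate 2 and 0.34 TPM in replicate 1. Kcns3 (0.93 and 0.56 TPM) and Kcng4, Kcnf1, Kcng1, Kcns1, Kcns2, Kcnv1 and Kcnv2 (each at or under 0.12 TPM) did not reach 1 TPM in either library.

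Of the 17 auxiliary genes, 4 reached 1 TPM in both libraries. Kcnab3, a beta subunit of Shaker-type channels, had 3.21 TPM in replicate 2 and 1.53 TPM in replicate 1. Kcnab2, of the same family, had 1.44 TPM in replicate 2 and 1.77 TPM in replicate 1. Kcnmb2 (a beta subunit that inactivates BK channels, studied in rat chromaffin cells) had 2.00 TPM in replicate 2 and 2.03 TPM in replicate 1, from 98 and 24 counts. Of the other BK beta subunits, Kcnmb4 had 0.60 TPM in replicate 2 and 0.47 TPM in replicate 1, Kcnmb3 0.55 and 0.19 TPM, and Kcnmb1, the smooth muscle form, 0.05 and 0.04 TPM. Kcnip3 (a calcium sensor that binds Kv4 channels) had 1.98 TPM in replicate 2 and 1.01 TPM in replicate 1. Kcnip1 (1.37 and 0.88 TPM), Kcnip4 (1.17 and 0.70 TPM) and Kcne4 (1.76 and 0.79 TPM) crossed 1 TPM in replicate 2 alone, and Kcnrg had 0.09 TPM in replicate 2 and 0.11 TPM in replicate 1.

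By transcript, the members had 397 annotated forms, 287 of them protein coding. Protein-coding forms held 90.9% of the members' TPM in replicate 2 and 89.4% in replicate 1. Kcnk3, with 71.1% of the members' TPM, weighs most in this share, which was not taken without it. Of the 17 members at 1 TPM in both libraries, 10 had the same leading transcript in both, and 6 also had it in both quantifications. Kcnk3-201 held 95.1% of the Kcnk3 TPM in replicate 2 and 95.8% in replicate 1. Kcnn2-203 led Kcnn2 with 33.2% in replicate 2 and 46.3% in replicate 1, but in the second quantification Kcnn2-205 led in replicate 2 with 27.4%. Kcnma1-221 led the 38 forms of Kcnma1 with 33.5% in replicate 2 and 22.6% in replicate 1, but in the second quantification Kcnma1-215 led in replicate 1.

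For 2 of the 17 the leading form was not a coding one. Kcnk2-203, annotated as a target of nonsense-mediated decay, held 51.6% of Kcnk2 in replicate 2 and 60.8% in replicate 1. In the second quantification it led in replicate 1 alone, and the coding form Kcnk2-206 led in replicate 2 with 33.4%. Kcnab3-203, a retained-intron form, held 65.7% of Kcnab3 in replicate 2 and 69.9% in replicate 1, and led in the second quantification too, with 72.0% and 77.7%. Gene levels of Kcnk2 and Kcnab3 therefore included message that is not annotated to give the full protein. Those of members with a coding leading form could too. In Kcnn2, coding forms held 68.2% of the TPM in replicate 2 and 59.3% in replicate 1.

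Between the libraries, few genes of any kind were 2-fold or more apart on scaled counts, and no member with enough counts to compare was. Of the members, 19 had a mean count of at least 100 and were compared as the log2 of TMM-scaled counts in replicate 2 over replicate 1, so that a positive value is higher in replicate 2. Their median was 0.10, beside 0.03 over all 11542 genes compared, and none of the 19 was 2-fold or more apart, where 1.32% of all genes were. At that share, 19 members are too few to show a difference from other genes at 2-fold. At 1.5-fold, 5 of the 19 were apart, where 5.81% of all genes were. The exact binomial test, which compares these libraries and covers counting error only, called 9 of the 19 after Benjamini-Hochberg adjustment over all genes compared (47.4%, where 33.5% of all genes were called). It called 5 higher in replicate 2 (17.6% of all genes) and 4 lower (15.9%). These ratios are relative to TMM scaling: scaling on total counts put the median of all genes at 0.91, 9 of the 19 members 2-fold apart (36.1% of all genes) and all 4 lower ones above 0.

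Kcnk3 was higher in replicate 2 by a log2 ratio of 0.17 (95% counting interval 0.15 to 0.20, adjusted p = 2.88e-37, exact binomial test). Kcnk9 went the other way, with a log2 ratio of -0.14 (-0.20 to -0.07, adjusted p = 0.000239, exact binomial test), though scaling on spike-in counts brought it to -0.01 and ended the call. Kcnn2 was lower in replicate 2 by a log2 ratio of -0.27 (adjusted p = 6.57e-08, exact binomial test). Larger ratios among the called members came on fewer counts. Kcnh2 had a log2 ratio of 0.84, Kcnd3 0.61 and Kcnk2 0.59, all higher in replicate 2, while Kcnq3 had -0.57 and Kcnk5 -0.64. Kcnma1 had 0.10 (-0.01 to 0.22) and was not called, though scaling on spike-in counts put it at 0.23 and called it.

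**Figure D4:**
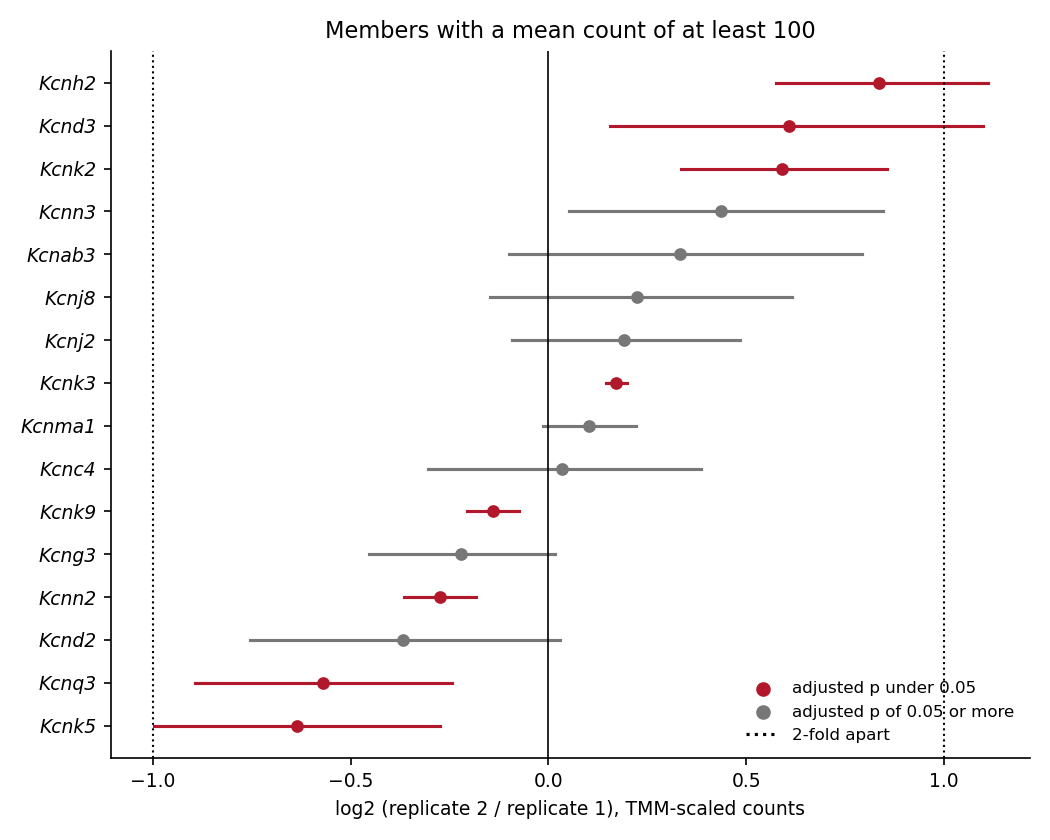
Log2 ratio of replicate 2 over replicate 1 on TMM-scaled counts for 16 of the 19 members with a mean count of at least 100, with 95% counting intervals, in red where the adjusted p was under 0.05 and with 2-fold dotted. The points run from 0.84 for Kcnh2 to -0.64 for Kcnk5, all within the 2-fold lines under TMM scaling, and Kcnk3 has the narrowest interval.

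Among the cell markers, the chromaffin list had a median log2 ratio of 0.16, with 5 of 7 called higher and 2 lower in replicate 2 (17.6% and 15.9% of all genes), and the zona glomerulosa list one of -0.26, with 1 of 7 called higher and 3 lower. The steroidogenic list had 0.20, with 3 of 5 called higher and 1 lower, and the X-zone list 0.20, with 3 of 3 called higher. The zona fasciculata list had -0.08 with a range of -0.91 to 0.05, and 3 of its 5 markers were called lower and 0 higher. The fat list had -0.32, with 5 of 5 called lower in replicate 2. The part of these in the members' ratios was not tested.

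Members within 100 kb of each other formed 9 pairs, and in none of them did both genes reach 1 TPM in both libraries. With 18.1% of all members at that level, 9 pairs are too few to show whether neighbours differ from other members. Kcnj2 and Kcnj16 lie 38195 bases apart on chromosome 11 on the same strand. In the first quantification Kcnj16 had 0 counts while Kcnj2 had 473 in replicate 2 and 129 in replicate 1. Kcnk5 and Kcnk16 lie 79566 bases apart on chromosome 14, and Kcnk16 had 0 counts in both libraries. Kcnip1 and Kcnmb1 overlap on opposite strands of chromosome 11 and had 76 and 7 counts in replicate 2 and 24 and 3 counts in replicate 1. In all, 43 members overlap another annotated gene, 39 of them one on the opposite strand. The share of all genes that do so is not given here. The strand setting of the authors' counting is not given in the sources used here, so reads of such partners may not be told apart. Within Kcnk3, the opposite-strand gene Gm9899 had 720 counts in replicate 2 and 279 in replicate 1, against 54297 and 15003 for Kcnk3.

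Of 37 other genes that handle potassium, 22 reached 1 TPM in both libraries, where 51.8% of all protein-coding genes did. The sodium pump, which builds the gradient the channels spend, had 6 of its 7 genes at 1 TPM in both libraries. Atp1b3 led its beta subunits, with 71.0 TPM in replicate 2 and 40.3 TPM in replicate 1. The FXYD proteins that tune the pump were led by Fxyd6 (58.5 TPM in replicate 2, 32.1 TPM in replicate 1) and Fxyd1 (49.9 and 44.5 TPM). Of the 7 cation-chloride cotransporters, which carry potassium along with chloride, 5 reached 1 TPM in both libraries, among them Slc12a7 with 15.9 TPM in replicate 2 and 8.41 TPM in replicate 1. In the first quantification the kidney forms Slc12a1 and Slc12a3 stayed at or under 0.06 TPM, and neither H,K-ATPase gene reached 1 TPM in both libraries. The second gave Slc12a3 0.890 TPM in replicate 2 and 0.350 TPM in replicate 1. Dpp6, a partner of the Kcnd channels, had 2.64 TPM in replicate 2 and 1.66 TPM in replicate 1. Of the BK gamma subunits, Lrrc55 had 5.20 TPM in replicate 2 against 4.13 TPM in replicate 1, and Lrrc26 had 0 counts. Hcn3, a cation channel opened by hyperpolarisation, had 5.82 TPM in replicate 2 and 1.96 TPM in replicate 1. None of the 22 that had a mean count of at least 100 was 2-fold apart (1.32% of all genes), and the exact binomial test called 6 higher (17.6% of all genes) and 2 lower (15.9%) in replicate 2.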

How the data were processed

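Total RNA of 2 adrenal libraries was sequenced, and 3 tables per library were used. Per the file headers and notes, the authors made the first quantification (a gene table and a transcript table of expected counts and TPM, with each transcript's percent of its gene) from transcriptome alignments, and the second (estimated counts and TPM per transcript, summed here per gene) straight from the reads, both on mm10 with GENCODE M21. Which programs were run is not given in the sources used here, and TPM, as deposited, covers all entries of a table, spike-ins included.

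Counts were rounded, scaled by TMM (edgeR 4.0.16; DESeq2 1.42.0 for alternative size factors) and compared between the libraries, for genes averaging 100 counts or more and with a prior of 1 count, by an exact conditional binomial test (scipy 1.17.1), adjusted by Benjamini-Hochberg over all genes at a threshold of 0.05. No quasi-likelihood test was possible with 1 library on each side. The test was checked on simulated data with counting error alone, scaled on known totals. That check covers neither TMM scaling nor any other spread between libraries. Intervals (95%, Clopper-Pearson) and the floor of 3 counts cover counting error only, and reads of 1 molecule are not independent. Rescaled TPM is TPM as a share of the nuclear coding genes without Lars2.

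The planned search of protein sequences could not be run, and codons were searched instead (Biopython 1.88 for alignment), with letters narrowed after a looser form had been tried. Members, lists and tests were chosen with earlier results of these data known. Named genes were Kcnk3, Kcnk9 and Kcnj5, the 25 highest members, the highest of each subfamily, those whose 1 TPM call differed between libraries or quantifications and their neighbours within 100 kb. Kcnt2, Kcnn4, Kcnmb1, the lower silent modifiers, members with no counts and genes that overlap members were named after their values were seen. Some genes that the rule names are not reported here.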

Additional observations from a re-analysis of the deposited data

Results flagged for a closer look

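Kcnq1ot1, a long non-coding RNA read from the strand opposite Kcnq1 and no member of the family, stood out as a signal outside the comparisons above: it had 5799 expected counts in replicate 2 and 2252 in replicate 1, where Kcnq1 itself had 80 and 31. Over its length this came to 1.98 TPM in replicate 2 and 1.48 TPM in replicate 1. The other Kcn-named antisense genes, Kcnab3os, Kcnd3os, Kcnmb4os1 and Kcnmb4os2, had at most 5 counts in either library.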

How the results depend on the processing

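The number of members at 1 TPM in both libraries was 17; it was 28 at 0.5 TPM, 4 at 5 TPM, 41 on rescaled TPM, which multiplies TPM by 2.96 in replicate 2 and 4.84 in replicate 1, and 20 in the second quantification, and 17 to 31 from a single library. Their median TPM (0.245 over the libraries) was 0.889 on rescaled TPM, 0.507 in the second quantification and 0.760 among members averaging 0.1 TPM or more. The K2P share (76.3%) was 75.7% in the second quantification, 81.5% on summed counts and 17.7% without Kcnk3. The inward rectifier share (1.40%) was 1.56%, 1.31% and 4.87% in these settings. The last 2 settings were added after seeing the data. Protein-coding transcripts held 90.1% of the TPM, and 87.9% by the second quantification, shares in which Kcnk3 weighs most. Kcnk3 over Kcnk9 (22.9 ± 3.59) was 25.6 in the second quantification, from 27.2 in replicate 2 and 24.1 in replicate 1. Rescaled TPM and counts per effective length leave this ratio nearly unchanged by construction, so they are no further check of it. Scaling on total counts, which sets libraries of unlike coding share side by side, put the median log2 ratio at 0.99 (0.91 for all genes), 9 members 2-fold apart (36.1% of all genes) and 17 called (98.4%), and turned round these ratios: Kcnd2 0.51, Kcnk5 0.25, Kcnq3 0.31, Kcnk9 0.75, Kcng3 0.67 and Kcnn2 0.61. Members 2-fold apart numbered 4 of 58 with a mean count of at least 10 (5.56% of all genes), 14 of 84 with no minimum (19.2%) and 5 of 19 at 1.5-fold (5.81%). Spike-in scaling called 10 of 19 (46.4% of all genes), 7 higher and 3 lower, and the second quantification 12 of 21 (35.5%). DESeq2 size factors left the 9 calls as they were. No paired analysis was possible because there is 1 group.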
